A study of Homo sapiens with 8 samples.

Results

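The baseline transcriptome of ESO26 was read from the 2 control libraries of the series, out of 8 samples in all. ESO26 is an established line of oesophageal adenocarcinoma cells, a gland-forming cancer of the lower oesophagus. The line was grown in RPMI-1640 medium with fetal bovine serum. Both libraries carry the label control in a study that lowered HNF4A with siRNA, and the labels do not say whether a control siRNA was given. The members were all 30755 gene symbols of the expression table in these 2 libraries, and the knockdown libraries were left aside. Nothing in the labels says whether the libraries came from separate cultures, so the spread between them may be technical.

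Oesophageal adenocarcinoma usually arises in Barrett's oesophagus, where the stratified squamous lining is replaced by a columnar lining with gastric and intestinal features. Squamous lining cells depend on TP63 and make keratins such as KRT5 and KRT13, while columnar gut cells make KRT8, KRT18 and KRT19. Intestinal identity is set by the homeobox factors CDX1 and CDX2 together with HNF4 factors, gastric surface cells make trefoil peptides, claudin-18 and gastric mucins, and hepatocytes share HNF4A with the gut and secrete plasma proteins.

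Normalized counts summed to 18198888 in control 1 and 18613685 in control 2, and the number of reads behind them is not given. The most frequent value above 0 was 1.22 in control 1 and 1.11 in control 2, so the threshold used below, 10 normalized counts in both libraries, lies several such steps above 0. A gene past this threshold is called detected. Of all symbols, 14711 were detected (47.8%), 2955 were listed at 0 in both libraries (9.61%), and 13089 lay between. Among 15246 protein-coding genes 11543 were detected (75.7%). The values are not divided by transcript length, no table of transcript lengths was used here, and a long transcript collects more reads than a short one. Ranks below are therefore ranks of normalized counts and not of molecules per cell.

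The libraries gave nearly the same values for well-counted genes. At means of 5000 or more, 95% of 622 genes differed by 1.15-fold or less between the libraries, and the median was 1.05-fold. For the 2672 detected genes with a mean under 50 the corresponding values were 2.20-fold and 1.28-fold. Among all detected genes 263 were more than 2-fold apart (1.79%), 206 of them with a mean under 50. Across the detected genes, which share library and depth and are not independent, Spearman's rho between the libraries was 0.994. A level under 50 is therefore given below with both values and read only as present or not.

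The 100 highest genes held 16.5% of the total in control 1 and 16.7% in control 2, and 95 of them were the same genes in both libraries. The highest was EEF1A1, which delivers aminoacyl-tRNA to the ribosome, with 131794 and 137136 normalized counts in controls 1 and 2. LASP1, an actin-binding adaptor of cell edges, came second with 105142 and 111217. Aldehyde dehydrogenase ALDH1A1, which makes retinoic acid and is used as a marker of stem-like cells, came next with 90997 and 95209. The ribosomal protein gene RPL23 had 85108 and 90625, the junction protein plakoglobin (JUP) had 77704 and 82758, and the growth factor receptor gene ERBB2 had 63592 and 62010.5. ERBB2, the HER2 receptor that is a drug target in gastro-oesophageal cancer, ranked 9 of all genes. For each of these genes both libraries lay within the narrow spread of well-counted genes.

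**Figure D1:**
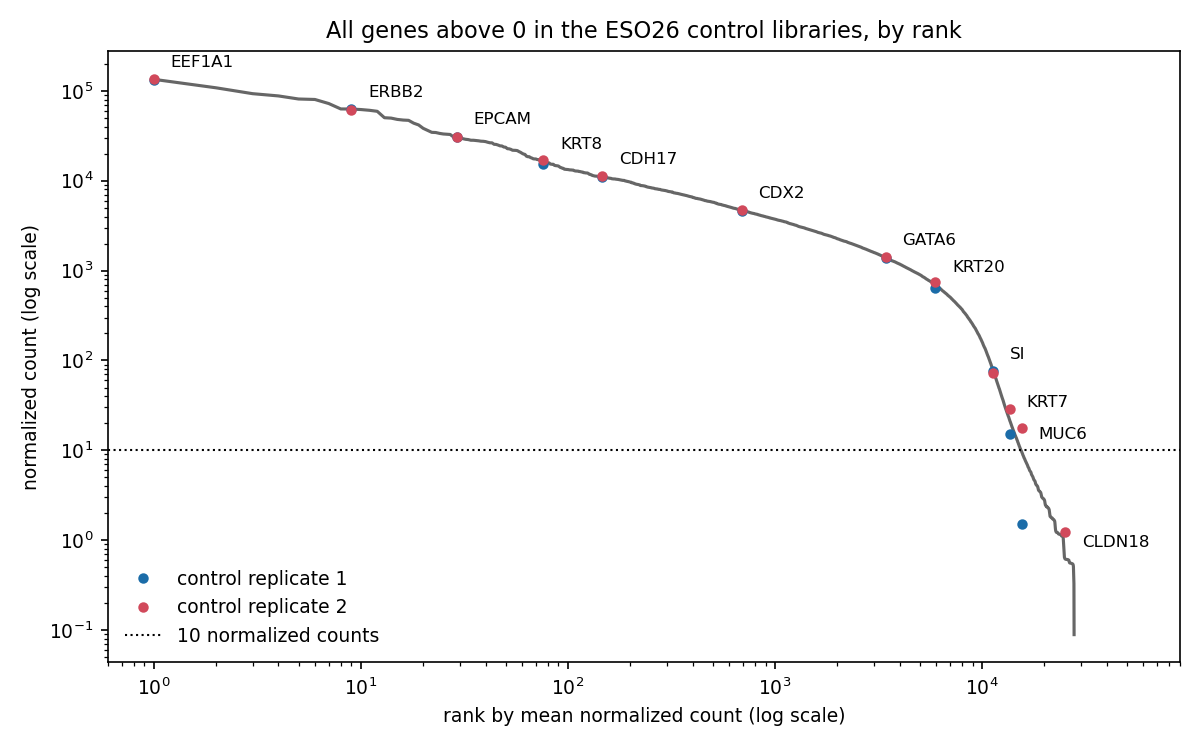
Normalized counts (log axis) of all genes above 0 against their rank by mean (log axis), as a grey line, with selected genes as points for control 1 (blue) and control 2 (red) and the detection threshold of 10 dotted. EEF1A1 stands at rank 1, ERBB2 at rank 9, EPCAM at rank 29 and CDX2 at rank 690, while KRT7 and MUC6 lie near the threshold and CLDN18, listed at 0 in control 1 and so drawn for control 2 alone, below it.

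Products of the mitochondrial genome made up 2.07% and 1.95% of the totals. The highest of them, MT-CO1, a subunit of cytochrome oxidase, had 82869.8 and 79580.1. The chaperone gene HSP90AA1 had 61708 and 64196 and HSPA8 had 48760.2 and 50789. The ferritin heavy chain gene FTH1, which stores iron, had 56571 and 65065. The translation factor EIF4G2 had 48529 and 52017, and GAPDH of glycolysis had 59265 and 64713. The other genes of the 20 highest were PABPC1, which binds poly(A) tails, the mitochondrial MT-RNR2 and MT-ND2, the chaperone HSP90AB1, the nucleolar NCL, the adaptor YWHAZ, and the actins ACTG1 and ACTB, from 69829 and 74758 for PABPC1 down to 36964 and 39632 for ACTB. Of the 20 highest genes 9 overlap another RefSeq gene, mostly a small RNA inside them, and the counting is not stated to use strand. ERBB2 also overlaps MIEN1, HSP90AA1 overlaps WDR20, and FTH1 overlaps BEST1 and LOC399900.

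Genes of columnar epithelium were listed with earlier results of these data known, so their detection does not test the label of a glandular carcinoma line. KLF5 stands on the squamous list as well. All 25 listed genes were detected, beside 75.7% of protein-coding genes, and 20 of them had a mean of at least 1000, beside 28.1% of protein-coding genes. The adhesion molecule EPCAM had 30669 and 30712, the tight junction protein gene CLDN4 had 12212 and 14580.0, and E-cadherin (CDH1) had 8196 and 8148. Of the simple keratins, KRT8 had 15550.5 and 17047, KRT19 had 15444 and 16367 and KRT18 had 5981 and 6333. The intestinal keratin KRT20 was lower in counts, with 637 and 748, and KRT7 had 15.1 and 28.6. KRT7 and KRT20 are the keratin pair that pathologists use to place a gut tumour, and in these libraries KRT20 was far above the detection threshold and KRT7 just above it. KRT8 and KRT18 have many processed pseudogenes, so their values are uncertain where reads were shared.

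**Figure D2:**
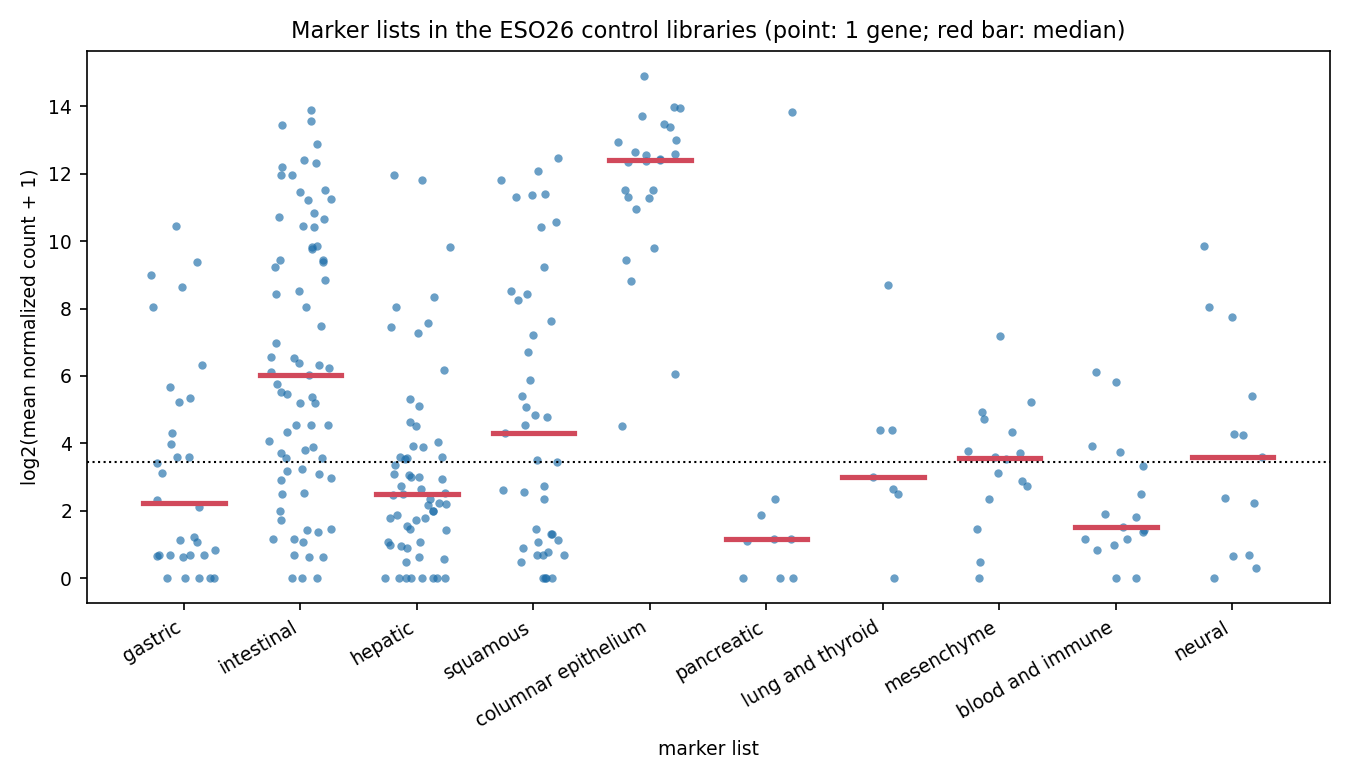
Mean of the control libraries as log2(normalized count + 1) for each gene with a row, by marker list, with the median of each list as a red bar and the detection threshold of 10 as a dotted line. Of the 10 lists drawn the columnar list has the highest median, 5452 normalized counts, the intestinal list spreads over the whole range with a median of 63.9, and the gastric and hepatic medians of 3.66 and 4.61 lie under the threshold.

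Intestinal genes were present as a partial programme. Of 84 listed symbols 75 had a row, and 51 of these (68%) were detected, which is below the 75.7% of all protein-coding genes. The parts of the list differed widely. All 7 intestinal transcription factors, all 7 adhesion and surface genes and 8 of 9 stem cell genes were detected, against 5 of 13 goblet cell genes, 1 of 4 Paneth cell genes and 1 of 6 endocrine genes.

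Among the factors, CDX2, the master regulator of intestinal identity, had 4563 and 4764 normalized counts. HNF4A had 4129 and 3937, CDX1 had 1779 and 1883 and HNF4G had 1379.6 and 1419. The intestine-specific homeobox gene ISX, which controls vitamin A uptake, had 1352 and 1376. In each of these the libraries lay close together.

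Of the surface genes, the liver-intestine cadherin CDH17 had 10963 and 11218, the tetraspanin gene TSPAN8 had 2344 and 2513, and the galectin gene LGALS4 had 1502 and 1723. GPA33, a colon antigen used as an antibody target, had 350.2 and 345. The carcinoembryonic antigen CEACAM5, the serum marker of gut cancers, had only 55.6 and 30.1, and its relative CEACAM6 had 30.8 and 41.3. Both are detected at a level where the spread between libraries was wide, and both genes have close relatives that can share reads.

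Of 29 brush border genes of the absorptive enterocyte with a row 22 were detected (75.9%), a share close to the 75.7% of protein-coding genes. Villin (VIL1), which bundles actin in microvilli, had 12202 and 12281, the peptidase DPP4 had 5082 and 5206, harmonin (USH1C), a scaffold of the links between microvilli, had 2894 and 2977, and the receptor GUCY2C had 2329 and 2407. Other enzymes and structural genes of the brush border had fewer counts. The motor gene MYO7B had 1004 and 848 and the microvillus motor gene MYO1A had 33.7 and 10.6. The scaffold gene ANKS4B had 597 and 601, and of the link cadherin genes CDHR5 had 162 and 195 and CDHR2 had 48.5 and 32.6. Sucrase-isomaltase (SI) had 77 and 73.4, aminopeptidase ANPEP had 81 and 46.9, and the alkaline phosphatase ALPI had 23.4 and 15.1. Lactase (LCT), with 2.44 and 2.23, and the lipid carrier FABP1, with 7.37 and 8.83, were under the threshold. FABP2, the intestinal fatty acid carrier, had 444 and 477 and so was detected where FABP1 was not. Lipoprotein assembly was near the threshold or below it, with 10.2 and 11.3 for APOB and 1.51 and 7.95 for MTTP.

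The stem cell genes of the crypt base were detected with the exception of SMOC2, which had 6.13 and 10.6. OLFM4, a secreted glycoprotein of intestinal stem cells, had 15901 and 14591 and stood at rank 85 of all genes. The ubiquitin ligase RNF43 had 5359.6 and 5555 and AXIN2 had 3974 and 4035, and both are feedback inhibitors and targets of Wnt signalling. The factor ASCL2 had 858 and 875, and the R-spondin receptor LGR5 had 299 and 230.3.

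Secretory cells left fewer traces. The membrane mucin MUC13 had 7486 and 7702 and the disulfide isomerase AGR2 had 1579.5 and 1819. The gel-forming mucin of goblet cells, MUC2, was listed at 0 in both libraries. ATOH1, the factor that commits cells to the secretory fate, had 7.33 and 7.76, and the trefoil peptide TFF3 had 16.4 and 28.6. SPDEF and FCGBP, also on the goblet cell list, were detected, with 77.7 and 81.5 for SPDEF and 45.9 and 43.9 for FCGBP. The goblet cell products SPINK4 (0 and 1.1) and ZG16 (0 and 1.11) were near 0, and REG4 had 5.06 and 8.62. Of the endocrine genes NEUROG3 alone was detected, with 18.3 and 13.3, while CHGA had 0 and 2.22. Lysozyme (LYZ) had 78.7 and 59.2, and the Paneth cell defensin DEFA6 was listed at 0 in both libraries.

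Gastric genes were mostly under the threshold. Of 48 listed symbols 32 had a row and 12 of these (37.5%) were detected, beside 75.7% of protein-coding genes. The sublist of gastric factors gave 7 of the 12, several of them shared with the intestine or pancreas. The transcription factor genes BHLHA15 (39.1 and 61.9) and ESRRG (18.8 and 10.6), listed with chief and parietal cells, were also among the 12. GATA6 had 1377 and 1410.1, GATA4 had 745 and 597, PDX1 had 389 and 416 and FOXA2 had 250.4 and 276. SOX2, a factor of the stomach and of the squamous oesophagus, had 19.2 and 18.5, and BARX1, which patterns the embryonic stomach, was listed at 0 in both libraries.

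The products of differentiated gastric cells were scarce. Of 13 genes of foveolar and mucous neck cells with a row, LYPD6B (33 and 40.3) and SULT1C2 (11.1 and 11.1) were detected. Claudin-18 (CLDN18), the gastric tight junction protein, had 0 and 1.23, ANXA10 had 1.22 and 0, and TFF2 was listed at 0 in both libraries. The pyloric gland mucin MUC6 had 1.51 and 17.9, values that lie on either side of the threshold. Pepsinogen PGC had 1.23 and 0, PGA3 and the intrinsic factor gene CBLIF were listed at 0 in both libraries, and the proton pump subunits were close to 0, ATP4A with 1.41 and 1.29 and ATP4B with 0 and 2.21. The potassium channel gene KCNQ1 had 532 and 487, and it serves many epithelia besides parietal cells. MUC5AC, TFF1, GKN1, GKN2, LIPF and GAST were not analysed here, since no row matched them.

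Hepatic genes were mostly under the threshold. Of 60 genes with a row 17 (28.3%) were detected, beside 75.7% of protein-coding genes, and the plasma proteins gave 3 of 19. Albumin (ALB), the most abundant hepatocyte product, was listed at 0 in both libraries. Alpha-1 antitrypsin (SERPINA1) had 75.9 and 65.6 and the fetal liver protein AFP had 25.2 and 22.6, while fetuin (AHSG) had 2.45 and 2.22 and haptoglobin (HP) had 1.8 and 4.1. These values contrast with the 4129 and 3937 of HNF4A, the factor that hepatocytes share with the gut.

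Of 24 liver enzyme genes 6 were detected. Argininosuccinate synthase (ASS1), a urea cycle enzyme that many epithelial cells also make, had 3489.5 and 3659, and FBP1 of gluconeogenesis had 183 and 168. CYP2E1, which oxidizes ethanol, had 162 and 145. The other liver cytochromes lay lower, with CYP3A4 at 2.06 and 2.81 and CYP7A1 listed at 0 in both libraries, and so did PCK1 with 1.72 and 3.13. Of the other liver nuclear receptors on the list, the xenobiotic receptor NR1I2 had 0 and 1.11 and the bile acid receptor NR1H4 had 0 and 2.22, while NR1I3 (11 and 11.3) and NR0B2 (12.2 and 15.5) were detected just above the threshold. FOXA3 had 290.1 and 356 and CEBPA had 279 and 243.

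Squamous genes were detected in 22 of 43 cases with a row (51.2%), beside 75.7% of protein-coding genes. The parts of the list differed, with 8 of 9 factors, 8 of 11 basal genes and 6 of 23 suprabasal genes detected. The factors included KLF5 (2454 and 2628), KLF4 (1369.8 and 1645), TFAP2A (563 and 650.1) and TFAP2C (303 and 391), which many other epithelia also use, and PAX9 (101 and 105), a factor of the squamous oesophagus. Adhesion genes that columnar epithelia share were among the detected basal genes. The hemidesmosome integrin ITGB4 had 5665 and 5669, its partner ITGA6 had 4210.3 and 4378, and the laminin chain LAMB3 had 3513 and 3766. Of the basal keratins, KRT5 had 32.6 and 12.1, KRT14 had 0.637 and 2.29 and KRT6A was listed at 0 in both libraries. By contrast KRT17 had 319 and 419, KRT15 had 182 and 111 and KRT16 had 24.4 and 31.3. Of the suprabasal genes the plakin PPL had 2772 and 2666, EVPL had 1447 and 1281, KRT10 had 183 and 212 and ECM1 had 48.5 and 34. KRT13, the keratin of the upper oesophageal layers, had 1.05 and 0.64, SPRR3 of the cornified envelope had 0 and 2.41, and involucrin (IVL) was listed at 0 in both libraries. The desmosomal cadherin DSG3 had 1.22 and 0, DSG1 had 2.04 and 0.928, while DSC2, a desmosomal cadherin of many epithelia, had 2649.9 and 2680.2. TP63, KRT4 and CRNN were not analysed here, since no row matched them.

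Among the lineage lists, 5 of 32 gastric, 3 of 75 intestinal, 8 of 60 hepatic and 4 of 43 squamous genes with a row were listed at 0 in both libraries, beside 3.24% of protein-coding genes. The remaining undetected members had some counts, at a level where stray reads and true low expression could not be told apart.

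Endoderm and foregut transcription factors were set side by side in the order of their normalized counts, which transcript length also shapes. Of 53 with a row 41 (77.4%) were detected, a share near that of all protein-coding genes. ETS factors led, with ELF3 at 10333 and 11042, ELF1 at 5362 and 5674 and EHF at 5347 and 5376, and the last pair overlapped. CDX2 followed with 4563 and 4764 and then HNF4A with 4129 and 3937, and neither overlapped its neighbours in this order. SOX4 had 3929 and 3508, SOX9 had 3066 and 2854 and KLF5 had 2454 and 2628. HNF4G (1379.6 and 1419) and GATA6 (1377 and 1410.1) overlapped each other, and KLF4 (1369.8 and 1645) spanned both. ISX came next with 1352 and 1376. The FOXA pioneer factors lay lower, FOXA1 at 484 and 426, FOXA3 at 290.1 and 356 and FOXA2 at 250.4 and 276. Of the GATA family GATA6 and GATA4 were detected, and GATA3 (3.71 and 26.1), GATA2 (2.68 and 4.87) and GATA1 (1.08 and 0) did not reach the threshold in both libraries. Of the secretory and endocrine factors XBP1, which expands the secretory apparatus, had 2165 and 2437.

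**Figure D3:**
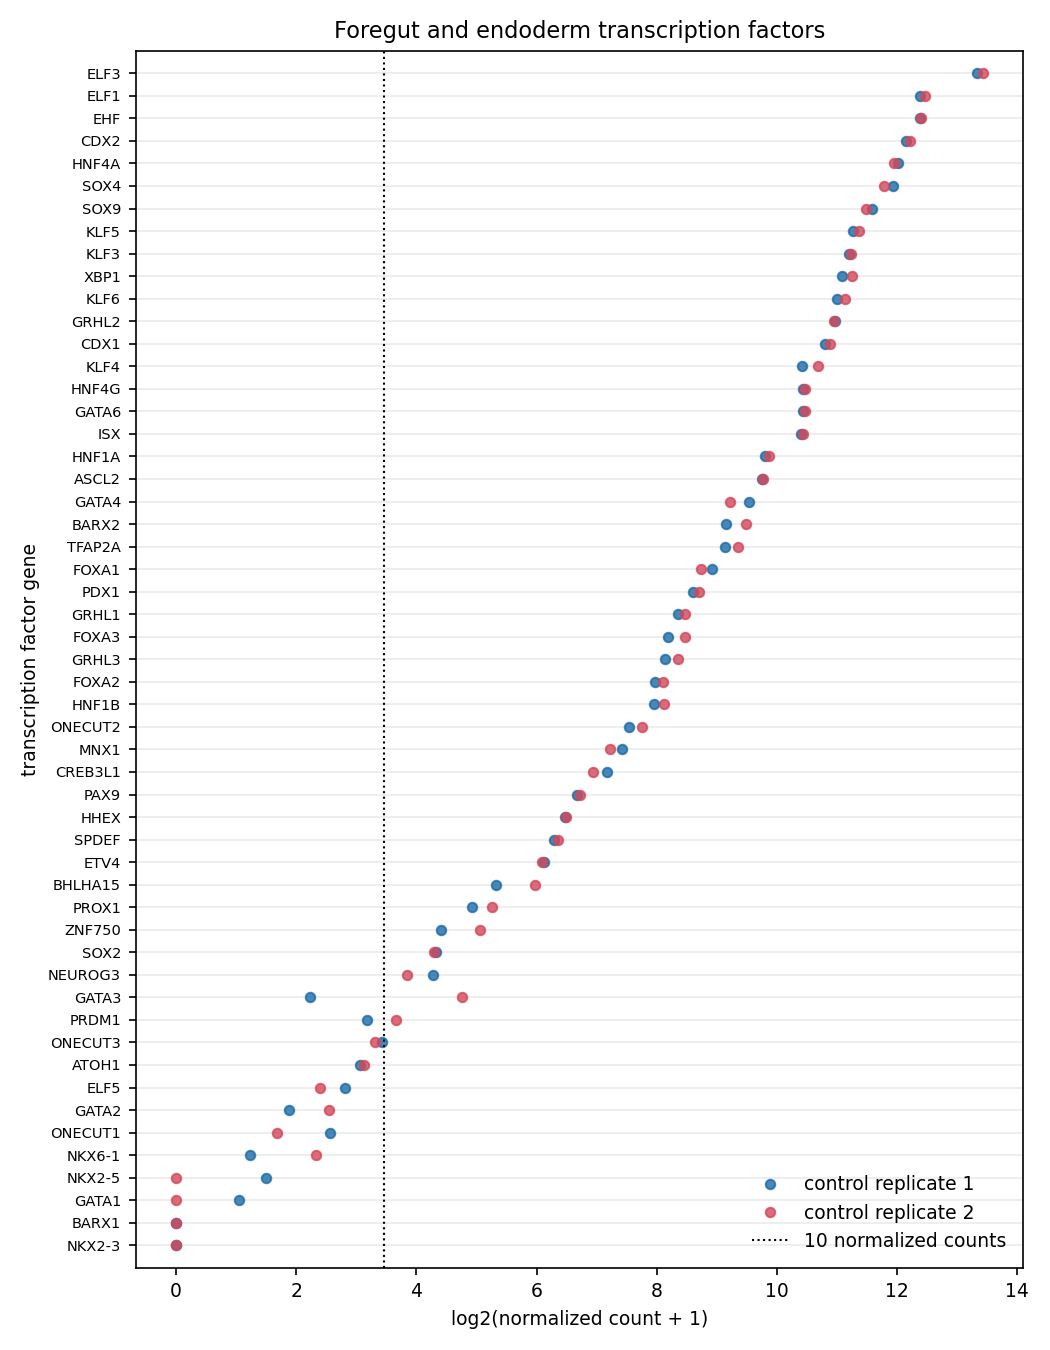
Each of 53 transcription factor genes as log2(normalized count + 1) in control 1 (blue) and control 2 (red), ordered by mean, with the detection threshold of 10 dotted. ELF3, ELF1, EHF, CDX2 and HNF4A lead, 41 genes lie above the threshold in both libraries, and the colours separate widely for GATA3 near the threshold.

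HOX genes, which record position along the body axis, were detected at 5' as well as central positions of their clusters. Of 34 HOX genes with a row 16 were detected, a smaller share than the 75.7% of protein-coding genes. The highest were HOXA13 with 875 and 825 and HOXA10 with 707 and 795. HOXB7 had 300.2 and 359.6, HOXB6 had 321 and 216 and HOXB13 had 213 and 196. HOXA13 and HOXB13 belong to the last group of the clusters, which in the embryo marks the hindgut and the tail end. HOXD genes with a row were all under the threshold, with HOXD13 listed at 0 in both libraries. Antisense RNAs overlap several HOX genes, and reads from them could not be told apart.

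**Figure D4:**
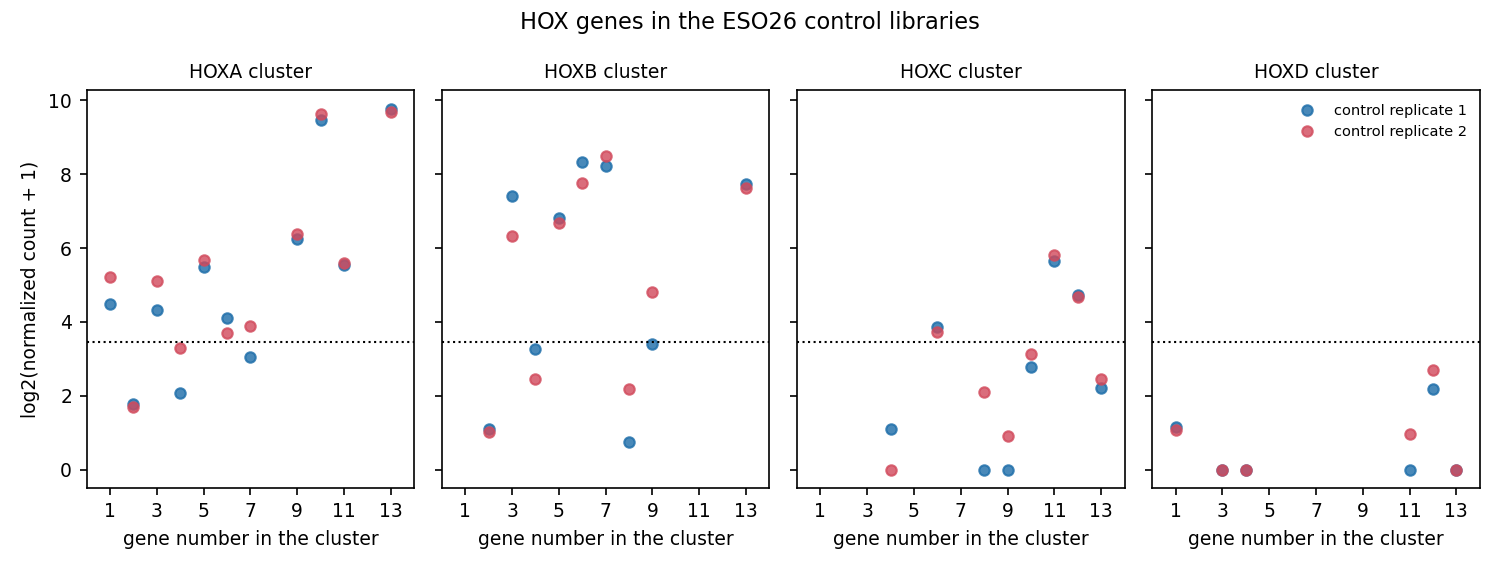
HOX genes by cluster and by number within the cluster as log2(normalized count + 1), control 1 in blue and control 2 in red, with the detection threshold of 10 dotted. HOXA13 and HOXA10 are the highest, HOXB genes 3, 5, 6, 7 and 13 form a second group, and the HOXD cluster stays under the threshold.

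Gene families of the epithelial surface were counted beside the same 75.7% of protein-coding genes detected. Of 32 keratin genes 13 were detected, led by KRT8, KRT19 and KRT18, followed by KRT23 at 2951 and 2948 and KRT80 at 1019.8 and 1128. Among 17 claudins 9 were detected, led by CLDN4, CLDN3 (6016 and 6691) and CLDN7 (5436 and 5715). Of 13 mucin genes 6 were detected, and these were membrane mucins: MUC13, MUC1 (2145 and 2332), MUC20 (2211 and 2039.9), MUC3A (1244 and 1265), MUC12 (63.1 and 59.96) and MUC4 (62.8 and 45.1). The gel-forming mucins MUC2 (listed at 0), MUC5B (0.921 and 0) and MUC6 did not reach the threshold in both libraries. Of 20 cadherins 5 were detected, with CDH17, CDH1 and P-cadherin (CDH3, 2073 and 2384) in front. In the S100 family S100A10 led with 6439 and 7332, while S100A9, of squamous and inflammatory cells, had 9.78 and 9.9 and S100A8 had 0 and 3.45.

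Lists of other cell types were checked because a culture can hold or lose other identities, and their counts stand beside the 75.7% of protein-coding genes detected. Vimentin (VIM), the filament of mesenchymal cells, had 18.1 and 20.5, 7 of 16 mesenchymal genes were detected, and the summed level of all 16 was 389 in control 1 and 266 in control 2. COL1A1 had the most counts of them with 179 and 108. Of 17 blood and immune genes 3 were detected, and PTPRC, carried by all white blood cells, had 0 and 1.56. In the neural list 6 of 13 genes were detected, led by MBP with 963 and 891, whose gene also makes transcripts outside glia, and the glial GFAP had 3.66 and 3.71. Of 7 lung and thyroid genes 3 were detected, with PAX8 at 465 and 366. PAX8 overlaps the long noncoding RNA gene PAX8-AS1, which had 1551 and 1617.5, and the counting is not stated to use strand. All 24 proliferation genes were detected, MKI67 with 8924 and 8707 and TOP2A with 6013 and 6083.

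Genes recurrently altered in oesophageal adenocarcinoma were detected in 29 of 31 cases, beside 75.7% of protein-coding genes. After ERBB2, the receptor gene MET had 3964 and 4434, EPHA2 had 3337 and 3266, ERBB3 had 2428 and 2517 and EGFR had 2291 and 2186. FGFR1 had 1.17 and 0 and the telomerase gene TERT had 2.21 and 1.23, and these were the 2 not detected. Of the tumour suppressors, SMAD4 had 836 and 928 and CDKN2A had 695 and 769. FHIT, which spans a fragile site, had the fewest counts of the 12 suppressors on the list, with 24 and 13.6. RNA levels say nothing of mutations in these genes.

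Promoter sequences were compared between detected and undetected genes, since sequence had no part in the measurements. RefSeq promoter windows (GRCh38.p14) of 250 bases before the start and 50 after it were matched for 12284 protein-coding genes of the table. The letters TATAAA between 40 and 20 bases before the start, on the sense strand, stood in 1.56% of the 9529 windows of detected genes, 5.89% of the 2392 of genes between 0 and the threshold, and 4.96% of the 363 of genes listed at 0 in both libraries. In the 500 highest genes, all of them detected, the share was 3.20% (exact 95% interval 1.84 to 5.14%). That interval holds the 2.51% of all windows but not the 1.56% of detected genes. The median ratio of observed to expected CpG was 0.840 in detected genes, 0.467 in those between and 0.391 in those listed at 0. The 35 windows of detected intestinal genes had a median CpG ratio of 0.326 and a median GC content of 55.3%, against 65.3% in all detected genes. The 18 windows of undetected intestinal genes were alike in this, at 0.354 and 55.7%, and the 12 of detected hepatic genes had a CpG ratio of 0.362. That ratio was 0.439 in the 14 windows of detected squamous genes and higher, 0.677, in the 8 of detected gastric genes. TATAAA stood at that position in 0 of the 35 windows of detected intestinal genes (exact 95% interval 0 to 10.0%), a range that holds the 1.56% of all detected genes. It stood in 4 of the 18 windows of undetected intestinal genes. The hepatic list had it in 4 of 12 windows of detected and 3 of 26 of undetected genes, the squamous list in 3 of 14 and 7 of 15, and the gastric list in 0 of 8 and 3 of 13. The lists thus did not all differ in the same direction, and each set is small.

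Sequences with TATAAA are shown for the abundant EEF2, TFRC and ELF3 and for the squamous genes IVL and SPRR3, which were listed at 0 or near it. Each runs 5′ to 3′ over the 120 bases before the start, with the match in capitals. EEF2 drives ribosome translocation, TFRC imports iron, and ELF3 led the transcription factors above. The windows of EEF2 (chr19:3985464-3985583, minus strand), TFRC (chr3:196082091-196082210, minus strand), ELF3 (chr1:202010467-202010586, plus strand), IVL (chr1:152908426-152908545, plus strand) and SPRR3 (chr1:153001629-153001748, plus strand) follow in GRCh38.p14.
EEF2: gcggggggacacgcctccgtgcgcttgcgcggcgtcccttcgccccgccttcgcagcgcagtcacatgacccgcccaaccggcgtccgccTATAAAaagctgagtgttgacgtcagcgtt
TFRC: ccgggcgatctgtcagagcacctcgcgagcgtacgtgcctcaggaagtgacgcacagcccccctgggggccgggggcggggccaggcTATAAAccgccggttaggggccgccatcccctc
ELF3: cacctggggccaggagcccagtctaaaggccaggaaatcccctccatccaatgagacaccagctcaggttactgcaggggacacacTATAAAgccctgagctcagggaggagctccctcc
IVL: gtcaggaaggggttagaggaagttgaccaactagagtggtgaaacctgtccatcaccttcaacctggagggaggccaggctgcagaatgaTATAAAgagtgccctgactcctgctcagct
SPRR3: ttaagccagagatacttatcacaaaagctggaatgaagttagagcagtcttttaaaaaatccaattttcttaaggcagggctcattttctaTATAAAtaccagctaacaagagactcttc

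TATAAA began 30 bases before the start in EEF2, 33 in TFRC, 34 in ELF3, 30 in IVL and 29 in SPRR3. EEF2 had 18093 and 19455 and TFRC had 21877 and 21657 normalized counts, ELF3 had 10333 and 11042, and IVL and SPRR3 were at 0 or close to it. The same letters at nearly the same distance thus stood before genes at either end of the range of counts.

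The letters CAAAGTCCA, a form of the site that HNF4 factors bind, were searched on both strands in the 250 bases before the start. They stood in 0.262% of the windows of detected genes and 0.269% of all windows, and in 2 of 53 windows of the intestinal list and 1 of 38 of the hepatic list. The matches in MUC13 (chr3:124934752-124934871, minus strand) and AHSG (chr3:186612880-186613059, plus strand) are shown in capitals, since HNF4A was abundant in the line and these genes stand far apart in counts. The stretch shown is the last 120 bases before the start for MUC13 and 180 for AHSG. Both matches read TGGACTTTG on the strand shown, the reverse complement of the letters searched.
MUC13: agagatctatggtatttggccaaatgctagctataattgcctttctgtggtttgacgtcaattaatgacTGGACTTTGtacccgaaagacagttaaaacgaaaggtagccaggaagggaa
AHSG: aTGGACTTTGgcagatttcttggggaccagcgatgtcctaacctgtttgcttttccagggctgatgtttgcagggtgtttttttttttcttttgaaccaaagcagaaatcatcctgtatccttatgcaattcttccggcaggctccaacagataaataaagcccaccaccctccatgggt

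The match began 51 bases before the start in MUC13 and 179 in AHSG. MUC13 had 7486 and 7702 normalized counts and AHSG, a liver plasma protein gene, had 2.45 and 2.22. A match of letters describes the sequence and does not show a bound site.

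Positions of the abundant genes along the chromosomes were compared last. Medians were taken over windows of 15 neighbouring protein-coding genes in RefSeq gene order. The windows moved on by 1 gene at a time, so adjacent windows share most of their genes. Among 14907 windows the median was 346 normalized counts and 99% lay under 1654. The highest window lay on chromosome 17 with a median of 5748 (5478 in control 1 and 6018 in control 2). Within it MLLT6 had 33985 and 31467, PSMB3 had 26109 and 28844, and RPL23 and LASP1 had the values given above. In the same window CACNB1 (6.24 and 10.2), a calcium channel subunit of nerve and muscle, did not reach the threshold in both libraries. Beyond the window in the same direction stood a further run with STARD3 (7638 and 8152), PGAP3 (7758 and 7678), ERBB2, MIEN1 (9153 and 10559) and GRB7 (9284 and 9514), next to IKZF3 (9.14 and 5.78), a lymphocyte factor. NEUROD2, a factor of neurons that lies in the same stretch, had 855 and 776, whereas STAC2 had 2.44 and 0.

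The window that came second lay on chromosome 12 with a median of 3748. It held the glutamine transporter gene SLC38A1 (36429.7 and 36190.0), the actin-binding gene TWF1 (27297 and 29132), the splicing factor gene SCAF11 (12954 and 13319) and SLC38A2 (5018 and 4681). TMEM106C (20111 and 21368) stood just past its end. Of the 7 windows with a median of 3000 or more, 4 lay on chromosome 17 and 3 on chromosome 12. On each chromosome they were the highest window and windows that shared genes with it, not separate regions. The next 3 windows that shared no gene with these or each other lay on chromosomes 11, 1 and 20, with medians of 2409, 2372 and 2249. Of the 50 highest genes 8 were on chromosome 17 and 7 on chromosome 12, which hold 6.23% and 5.17% of the detected protein-coding genes. Of the 200 highest, 15 were on chromosome 17 and 19 on chromosome 12, while chromosome 2, with 7.03% of the detected protein-coding genes, held the most with 26. Copy number was not measured in these libraries.

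**Figure D5:**
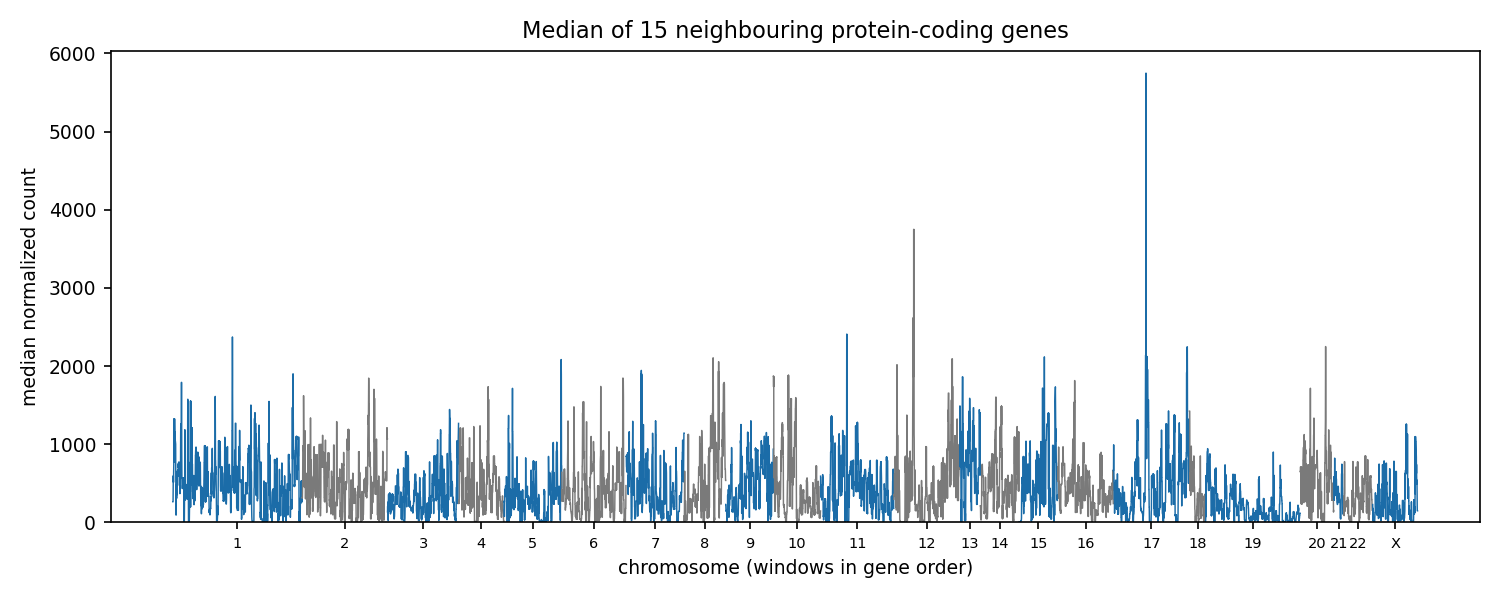
Median normalized count of 15 neighbouring protein-coding genes for every window in gene order along chromosomes 1 to 22 and X, with neighbouring chromosomes in alternate colours. The peaks on chromosome 17 (5748) and chromosome 12 (3748) stand above all other windows.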

How the data were processed

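The authors deposited a table of normalized counts, a signal value per gene symbol and library, whose normalization method, counting program and annotation are not given in the sources used here. Per the submitters' processing notes the build was hg19 and the tools were Bowtie, Bowtie2, Trim Galore, Picard and MACS2, with no role stated for RNA-seq. Libraries were grouped by title and columns matched by name. The control columns were read with pandas 2.3.3 in Python 3.11.15. A gene was detected at 10 or more normalized counts in both libraries. Of 30755 symbols 19263 match a RefSeq symbol (GRCh38.p14), which gave biotypes, gene order and promoters. No test was made, as the 2 libraries form 1 group. Lists and members were chosen with earlier results of these data known, and detected members were read against all protein-coding genes. Genes named come from the 20 highest, the leading and undetected members of each list and family, transcription factors, and genes of the highest windows. The promoter letters other than TATAAA and the printed promoters were chosen after values were seen, and so were FHIT, CDKN2A, the genes around ERBB2, TMEM106C, KRT5, KRT7, KRT16, PAX8-AS1, MUC4, MUC5B, LGR5, FABP2, SI, ANPEP, MYO1A, ANKS4B, CDHR2, CDHR5, NR1I3, NR0B2 and ALPI. Planned settings per transcript length were not run for want of lengths, and the rule's order per length was replaced by normalized counts. A few genes are not reported here. Peak lists and 4C libraries were not used here.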

Additional observations from a re-analysis of the deposited data

How the results depend on the processing

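No paired analysis was possible because 1 group of 2 libraries was described and no test was made. With a threshold of 1 in place of 10, 22216 genes were detected in place of 14711, and hepatic genes went from 17 to 41 of 60. With a threshold of 50, hepatic genes went to 9 and gastric genes from 12 to 6 of 32, so these lists depend on how low values are read. The hepatic list had the smallest share detected of the 4 lineage lists at thresholds of 10 and 50, but at a threshold of 1 its 68.3% lay above the 56.2% of the gastric and 65.1% of the squamous list. Intestinal, squamous and columnar genes stayed within 1.5 times under these thresholds, with 37 to 66, 15 to 28 and 23 to 25 detected. Leaving out control 1 or control 2 gave 14 and 13 gastric, 55 and 51 intestinal, 17 and 23 hepatic and 22 and 23 squamous genes, and 15267 and 15539 genes in all. The 100 highest protein-coding genes held 16.8% of the protein-coding total. Genes over 2-fold apart, 263 as reported, numbered 147 after adding 5 to each value, 10 with at least 100 in both libraries and 3353 of 22591 above 0 in both. The highest window of genes stayed on chromosome 17, with a median of 8485 over 10 genes and 3024 over 20, and of 6018 and 5478 from control 2 and control 1 alone. In the promoters, the share with TATAAA was 5% in the 200 highest genes. The depth of the libraries is unknown, so absence below the threshold is not shown.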

Other observations

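Most genes in this paragraph and the next were chosen after their values were seen. Carboxyl ester lipase (CEL), a digestive enzyme of the pancreas and lactating breast, had 14483 and 14649.7 normalized counts and stood at rank 90, while the other 8 pancreatic genes with a row were not detected (11.1% of the list detected, beside 75.7% of protein-coding genes), among them PRSS1 (1.29 and 1.16) and CTRB1, which was listed at 0 in both libraries. CEL has a neighbouring pseudogene that can take its reads. UGT1A6, a glucuronosyltransferase, had 24014 and 26710.5, and its exons are shared with other members of its cluster. The ketosteroid reductase AKR1C3 had 14249.7 and 16264.

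Of 84 ribosomal protein genes 82 were detected, beside 75.7% of protein-coding genes, and together they made up 3.61% and 3.79% of the totals. RPL23 was the highest with 85108 and 90625, followed by RPL8 with 26948 and 29508. RPS28 had 43.9 and 32.4 and RPS26 had 180.4 and 224, and both have processed pseudogenes that can share their reads. Among long noncoding RNAs MALAT1 led with 22979 and 17474 and NEAT1 had 6273 and 5009.8, and both nuclear RNAs were higher in control 1.

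Of the detected genes with a mean of at least 100, 21 were over 2-fold apart between the libraries. TENC1 was the furthest apart with 181 and 49. KLHL3 had 88.6 and 262, and SMN2, which has the near-identical copy SMN1, had 68.6 and 162. The readthrough LY75-CD302 had 347 and 132, and it overlaps the genes it joins. The part of shared reads in these differences was not tested.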
